A study of Mus musculus with 2 samples.

Results

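The Igfbpl1 Sox11 cells were a small group of immature neuron-like cells in a single-cell survey of the mouse hippocampus. A cell belonged to the group when the deposited value of Igfbpl1 was at least 1, that of Sox11 was at least 1 and their sum was at least 4. The rule found 155 cells among 15930. Of these, 67 came from the wild-type library of 7094 cells and 88 from the knock-in library of 8836 cells. The wild-type library held cells of wild-type control mice, and the knock-in library held cells of mice homozygous for the Pigv341E allele, which alters an enzyme of glycosylphosphatidylinositol (GPI) anchor synthesis. All mice were C57Bl.6/J. For each genotype the 8 hippocampi of 4 animals were pooled after cold mechanical dissociation. Each genotype was thus 1 library (Chromium v3 droplet chemistry), and 1 sequencing lane carried both. Age and sex are not given in the sources used here. Genotype and library therefore cannot be told apart, and no difference between them has a replicate check or a p-value.

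Neurons go on being born in the dentate gyrus of the rodent hippocampus. Neural stem cells there give rise to dividing intermediate progenitors that carry Eomes. Immature granule neurons come next and carry Sox11, Sox4, Dcx and Calb2. Mature granule neurons come last and carry C1ql2. Prox1 marks the granule neuron lineage and is not counted as a mature gene here. Sox11 and Sox4 are the SoxC transcription factors of newly formed neurons. Igfbpl1 encodes a secreted protein related to the insulin-like growth factor binding proteins and is a known marker of newborn neurons. In GENCODE M21 on GRCm38, Igfbpl1 lies on the minus strand of chromosome 4 at 45809468 to 45826923, and Sox11 on the minus strand of chromosome 12 at 27334264 to 27342574.

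The share of such cells was 0.944% among wild-type cells (95% Clopper-Pearson interval 0.733 to 1.20) and 0.996% among knock-in cells (0.800 to 1.23). The intervals overlap, and they cover counting error only. The deposited values are depth-corrected whole numbers, so the sequencing depth of a cell is unknown, and a 1 in the table may not stand for a counted molecule. When every cell was thinned to a total of 4500 before the rule was applied, 49 wild-type and 54 knock-in cells still met it (0.691%, interval 0.511 to 0.912, and 0.611%, 0.459 to 0.797), and the order of the libraries turned. No cell barcode of the group occurred in both libraries, whereas 28 barcodes did so over all cells.

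The rule fixed the values of Igfbpl1 and Sox11, which are given here as a description. Igfbpl1 ran from 1 to 15 in wild-type and from 1 to 23 in knock-in members, with a median of 4 in both. Sox11 ran from 1 to 29 and from 1 to 35, again with a median of 4 in both. Among the members, 22 had a sum of exactly 4 and 13 a sum of exactly 5. Outside the rule, 21 wild-type and 65 knock-in cells had both genes above 0 with a sum of only 2 or 3. Igfbpl1 alone, at 4 or more with Sox11 at 0, was seen in 9 wild-type and 16 knock-in cells. Sox11 alone, at 4 or more with Igfbpl1 at 0, was seen in 24 and 77 cells.

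**Figure D1:**
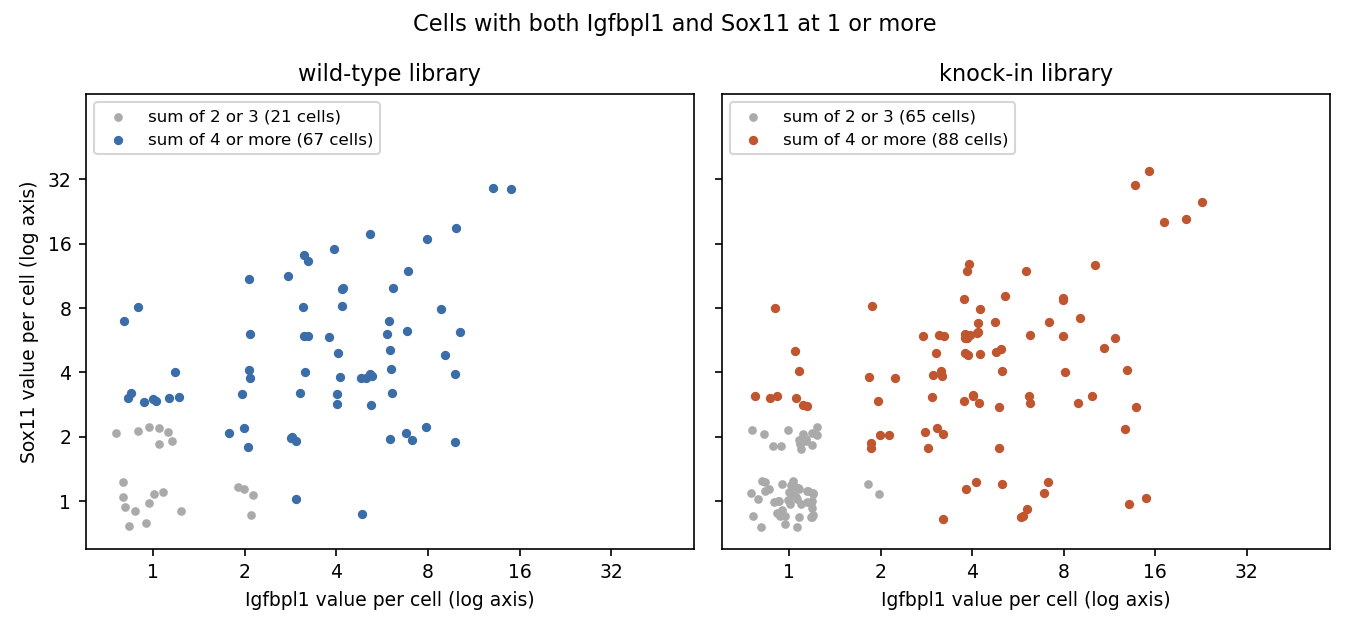
Deposited values of Igfbpl1 (horizontal, log axis) and Sox11 (vertical, log axis) in every cell with both at 1 or more, one panel per library, with a small random shift so that equal values do not hide each other. Coloured points are the 67 wild-type and 88 knock-in members, and grey points are the 21 and 65 cells whose sum was 2 or 3.

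Low values of the rule genes also occurred in cells of other types. Newly formed oligodendrocytes, a glial type, were taken by a like rule (Enpp6 and Bcas1, each at least 1, sum at least 4, no member), which gave 300 wild-type and 275 knock-in cells. Igfbpl1 was above 0 in 0 of the 300 (exact interval up to 1.22%) and in 9 of the 275 (3.27%, 1.51 to 6.12), and Sox11 in 2.67% and 7.64%. Dentate granule neurons were taken in the same way by Prox1 and C1ql2, which gave 517 wild-type and 611 knock-in cells. Igfbpl1 was above 0 in 0.967% (exact interval 0.315 to 2.24) and 2.78% (1.63 to 4.42) of these neurons, and in each library the interval overlaps that of the glial cells. Sox11 was above 0 in 31.3% and 33.1% of granule neurons, above the share in the glial cells of either library. GABA neurons, taken in the same way by Gad1 and Gad2, numbered 121 wild-type and 261 knock-in cells. Igfbpl1 was above 0 in 4.96% (exact interval 1.84 to 10.5) and 8.81% (5.67 to 12.9) of them, the highest share of these cell types in each library. The interval lay above that of granule neurons in the knock-in library only, and above that of the glial cells in the wild-type library only.

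Markers of immature neurons were high in the members of both libraries, and most members also carried the dentate transcription factor Prox1. Levels are given per 10000, as the total of a gene over a set of cells relative to the total of all genes in them. A gene is called past the fold when the log2 ratio of the levels, with 0.1 added to each, was at least 1 in size, the higher level was at least 1 and at least 10% of the cells on that side had a value above 0. In each library the members were compared with all other cells of that library. Over all genes that could pass, 152 of 2228 were higher in both libraries (6.82%) and 167 were lower in both (7.5%). Of 33 immature neuron markers in the table, 12 were higher past the fold in wild-type members and 13 in knock-in members, and none was lower. The median log2 ratio of the list was 1.56 and 1.47, beside 0.02 and -0.01 over all genes. In single libraries, 8.27% and 8.08% of all genes were higher past the fold. Ribosomal protein genes took over 1% of the summed values in 7 of 67 wild-type and 10 of 88 knock-in members, and in 8.42% and 9.08% of other cells. With all such cells left out, 6 and 8 of the 33 markers were higher past the fold and none was lower, and the median of the list was 0.93 and 0.86.

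Doublecortin (Dcx), a microtubule binding protein of migrating neurons, was above 0 in 37 of 67 wild-type members (55.2%) and in 66 of 88 knock-in members. In other cells it was above 0 in 986 of 7027 (14.0%) and in 1750 of 8748. After thinning to 4500, Dcx remained above 0 in 38.8% and 62.5% of members and in 7.87% and 11.5% of other cells. Its level was 1.53 and 2.21 in members and 0.234 and 0.356 in other cells. Dcx was not particular to the members, since GABA neurons outside them had 1.37 and 1.71. Sox4, the partner of Sox11, stood at a level of 1.60 in wild-type and 1.89 in knock-in members against 0.124 and 0.164 in other cells, a log2 ratio of 2.92 and 2.91. The 17 members with a high ribosomal share gave 59.1% and 51.4% of these Sox4 values, and without them Sox4 was at 0.744 and 1.05. They gave 20.2% and 14.0% of the Dcx values. The calcium-binding protein calretinin (Calb2), a marker of the early postmitotic granule neuron, reached a level of 0.707 and 1.01 against 0.0259 and 0.0379, and 0.294 and 0.384 without the 17 cells. Draxin, a secreted guidance factor, reached 0.448 and 0.724 against 0.0120 and 0.0111. The polysialic acid transferase St8sia2, which modifies the adhesion molecule Ncam1, had levels of 0.638 and 0.646 against 0.0354 and 0.0406. Calb2, Draxin and St8sia2 stayed near or under the minimum level of 1, so only Calb2 in knock-in members could pass the fold.

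The cytoskeleton genes of a growing neuron were high in part through the same 17 cells. Of 24 such genes, 9 in wild-type and 10 in knock-in members were higher past the fold and none was lower, with a median log2 ratio of 0.98 and 0.73. Without cells of high ribosomal share, 4 and 5 were higher and none was lower. The beta-tubulin Tubb2b had a level of 1.71 and 2.15 against 0.145 and 0.251 in other cells, and 0.822 and 0.547 without the 17 members. Stathmin (Stmn1), which destabilises microtubules, had 2.60 and 1.93 against 0.351 and 0.378. One wild-type cell gave 43.7% of the wild-type Stmn1 sum, and without it the level was 1.499, while without the 17 members the levels were 0.685 and 0.798. The collapsin response mediators Dpysl3 and Dpysl5 had log2 ratios of 2.28 and 2.57 for wild-type members and 2.17 and 2.14 for knock-in members. Mapt, which encodes the axonal protein tau, was at 5.90 and 4.99 in members against 8.53 and 7.40 in other cells, within the fold.

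Adamts18, which encodes a secreted metalloprotease, and Sema3c, a secreted semaphorin, led the genes past the fold when these were ranked by the smaller ratio of the 2 libraries, the rule genes aside. Adamts18 had a level of 4.38 in wild-type and 4.36 in knock-in members against 0.0712 and 0.124 in other cells, and it was above 0 in 68.7% and 64.8% of members. Its log2 ratio was 4.71 and 4.32. Sema3c had a level of 3.45 and 4.08 against 0.0840 and 0.111, with a log2 ratio of 4.27 and 4.31. Without the 17 members of high ribosomal share, Adamts18 was at 4.15 and 4.52 and Sema3c at 3.66 and 4.12. Both genes were about as low in granule neurons as in other cells, at 0.0520 and 0.0901 for Adamts18 and 0.0320 and 0.0584 for Sema3c. Adamts18 lies on the minus strand of chromosome 8 at 113697126 to 113848738, and Sema3c on the plus strand of chromosome 5 at 17574281 to 17730268.

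**Figure D2:**
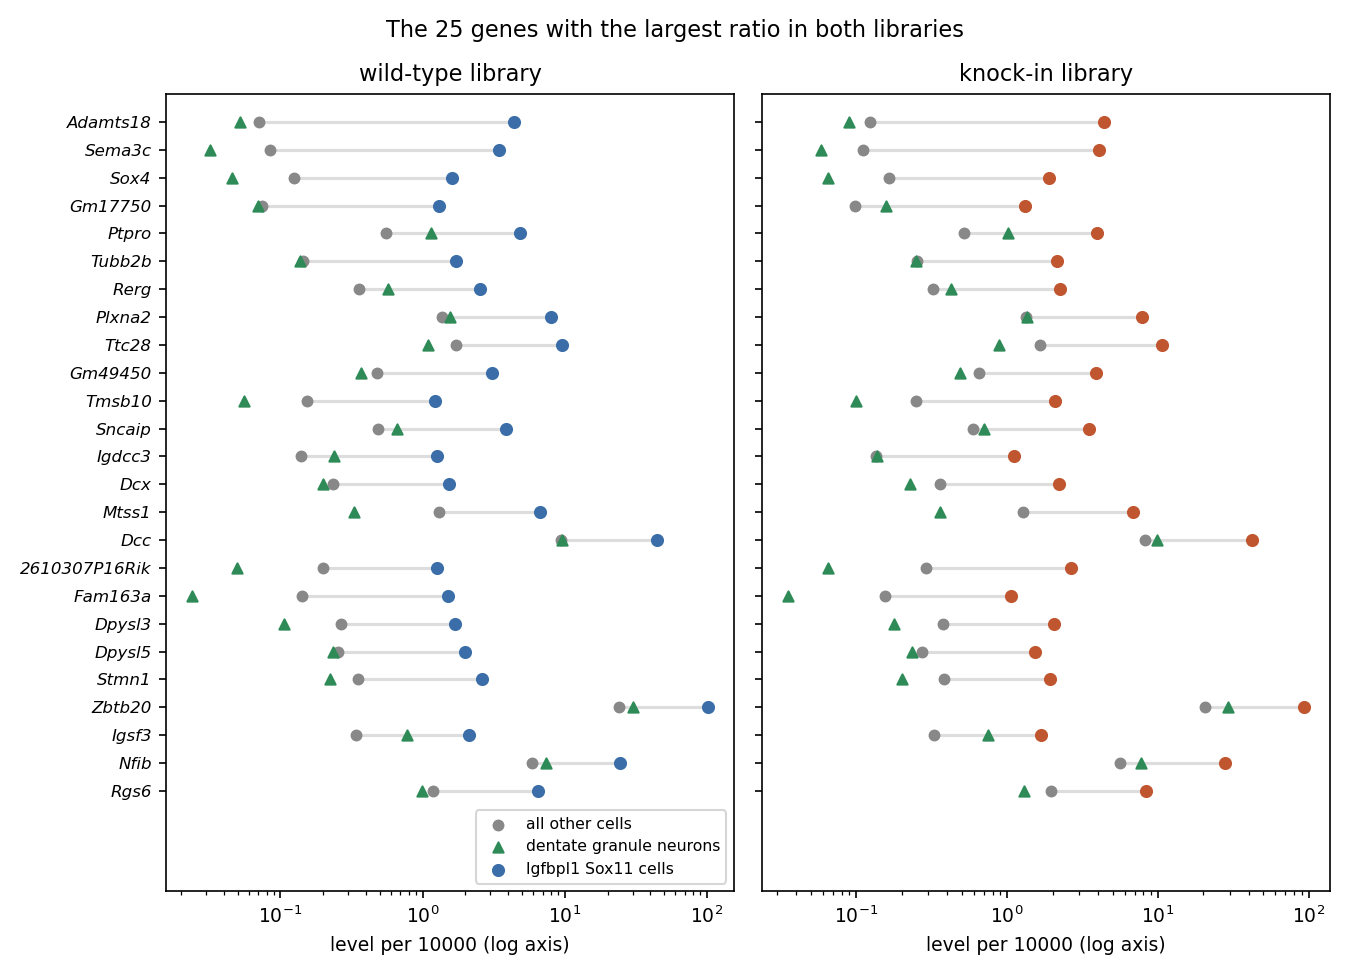
Level per 10000 (log axis) of the 25 genes with the largest log2 ratio of members over other cells, ranked by the smaller of the 2 libraries, in the wild-type (left) and knock-in library (right). Coloured points are the Igfbpl1 Sox11 cells, grey points all other cells and green triangles the dentate granule neurons, and in both libraries the coloured point lies to the right of the other marks for all 25 genes.

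Guidance receptors were split. Of 33 axon guidance genes, 10 were higher past the fold in each library, while 3 in wild-type and 4 in knock-in members were lower. Dcc, the netrin receptor, reached a level of 44.7 and 41.9 against 9.41 and 8.17 in other cells, and it was above 0 in 97.0% and 100% of members. The semaphorin receptor Plxna2 reached 8.05 and 7.87 against 1.37 and 1.34. The semaphorin co-receptor Nrp2 reached 3.84 and 2.86 against 0.907 and 0.885, and the Slit receptor Robo1 12.6 in both libraries against 4.68 and 5.35. On the lower side, the other netrin receptor Unc5c stood at 1.65 and 1.34 against 7.07 and 6.66. Of 24 genes of Eph receptors, ephrins and Abl kinases, 2 were higher in each library, while 1 in wild-type and 2 in knock-in members were lower. The median log2 ratio was 0.05 and 0.13. Over all genes 8.27% and 8.08% were higher and 10.5% and 10.1% lower, so this list did not stand out by its counts. The higher genes were Epha4 at 9.15 and 9.89 against 4.19 and 3.47 and Ephb2 at 1.93 and 1.499 against 0.899 and 0.640. Igf1r, the receptor of insulin-like growth factor 1, was at 6.57 and 7.43 against 3.24 and 3.05, with a log2 ratio of 1.00 and 1.26 that passed the fold in the knock-in library only, a difference between libraries that was not tested.

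Several transcription factors stood out by level, and of those named in this paragraph only Zbtb20 was on the dentate lineage list. Zbtb20, a zinc finger repressor that specifies hippocampal neurons, had a level of 103 in wild-type and 92.8 in knock-in members against 24.2 and 20.3 in other cells and 30.3 and 29.3 in granule neurons. Per cell, its value ran from 0 to 165 with a median of 96 in wild-type members and from 0 to 189 with a median of 90.5 in knock-in members. The median was 19 and 17 in other cells and 28 in the granule neurons of either library. A value of 60 or more was found in 108 of 155 members, in 5 of 1128 granule neurons and in 341 other cells. Nfib was at 24.5 and 27.8 against 5.88 and 5.60, Nfia at 21.03 and 19.6 against 7.48 and 7.06, and Tcf4 at 51.1 and 48.9 against 17.5 and 16.1. Of 37 neuronal transcription factors, 10 in wild-type and 11 in knock-in members were higher past the fold, and 1 and 2 were lower. One of the lower genes in both libraries was St18, at 0.690 and 1.02 in members against 7.07 and 5.94.

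Prox1, the factor that sets granule neuron identity, was at 3.45 in the members of both libraries, against 0.896 and 0.711 in other cells and 3.34 and 3.06 in granule neurons, which were chosen on it. It was above 0 in 49 of 67 wild-type members (73.1%) and in 60 of 88 knock-in members (68.2%), against 32.1% and 28.1% of other cells. Thinned to 4500, the shares were 62.7% and 58.0% of members and 24.1% and 19.9% of other cells. Eomes, the factor of intermediate progenitors, had a level of 0.414 and 0.181 in members, 0.00223 and 0.00350 in other cells, and was listed at 0 in all granule neurons. Of 18 dentate lineage genes, 4 were higher past the fold than in other cells in each library and none was lower. The median log2 ratio of this list was 1.83 and 0.56, and 0.51 and 0.31 without cells of high ribosomal share. Against granule neurons, which were chosen on Prox1 and C1ql2 of this list, 2 were higher and 2 lower in each library. The median there was -0.53 and -0.67.

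Against the granule neurons, immature neuron markers were higher in the members and several mature neuron genes were lower. In this comparison 245 of 2236 genes were higher in both libraries (11%) and 247 were lower in both (11%). Of the 33 immature neuron markers, 14 in wild-type and 15 in knock-in members were higher and none was lower, and 12.9% and 13.8% of all genes were higher in the single libraries. Of 75 ribosomal protein genes, 37 and 38 were higher and none was lower, with a median log2 ratio of 1.57 and 1.29. This rested on few cells: the median ribosomal share per cell was 0.181% and 0.269% in members and 0.158% and 0.231% in granule neurons, and the highest member of each library reached 9.32% and 7.35%. Without cells above 1%, no ribosomal gene was higher past the fold, the median of the list was 0.20 and 0.11, and 10 and 11 of the immature neuron markers were higher. Of 20 mature neuron genes, 1 and 2 were higher and 7 were lower in each library, with a median of -0.63 and -0.57, and 12.2% and 13.1% of all genes were lower. Of 24 transmitter receptor genes, 0 and 2 were higher and 3 were lower in each library, with a median of -0.66 and -0.46, so the receptors named next are single genes of a list that did not stand out by its counts. Grin2a, the NMDA receptor subunit that rises as neurons mature, was at 8.26 and 5.02 in members against 30.1 and 28.9 in granule neurons. Its counterpart of young neurons, Grin2b, was at 13.8 and 16.1 against 15.6 and 15.2. Slc12a5, the chloride exporter of mature neurons, was at 0.517 and 0.504 against 1.62 and 1.47, while the importer Slc12a2 was at 0.621 and 0.517 against 0.536 and 0.587. The GABA receptor subunits Gabra4 and Gabrb2 were at 0.931 and 1.29 in wild-type members against 2.69 and 3.72, and at 0.763 and 1.499 in knock-in members against 2.77 and 3.60. C1ql2, which was part of the granule neuron rule, was at 0.172 and 0.181 in members.

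Genes that were lowest in members against all other cells included several of oligodendrocytes, the myelin-forming glia. Mobp, a myelin protein gene, was at 0.0517 and 0.116 against 1.57 and 1.33. Fa2h, which makes hydroxylated myelin lipids, was listed at 0 in all wild-type members and at 0.103 in knock-in members against 1.55 and 1.15. Enpp2 was at 0.672 and 0.879 against 6.46 and 5.54. Of 11 mature oligodendrocyte genes, 8 in wild-type and 5 in knock-in members were lower past the fold and none was higher, and of 12 microglial genes 6 and 7 were lower. In the single libraries 10.5% and 10.1% of all genes were lower past the fold.

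Members with higher sums carried more of several early genes and less of Grin2a and Slc17a7, while Dcx rose in wild-type members only. Most of the 17 members with a high ribosomal share had a sum of 10 or more, and none had a sum of 4 or 5. These 17 cells gave 59.1% and 51.4% of all Sox4 values in wild-type and knock-in members. Part of the rise of Sox4 with the sum thus came from them. The levels of the bands without these cells were not tested. For sums of 4 to 5 (35 cells), 6 to 9 (53 cells) and 10 or more (67 cells), the level of Sox4 was 0.372, 0.797 and 3.30, and that of Stmn1 was 0.434, 1.04 and 4.12. Calb2 was at 0.0310, 0.863 and 1.36, and Nfib at 14.3, 23.2 and 35.6. Prox1, a gene of the granule neuron lineage rather than an early one, was at 2.17, 3.36 and 4.23. Zbtb20 was at 59.7, 105 and 111. Dcx was at 1.04, 1.40 and 1.94 in wild-type members, but at 2.26, 2.31 and 2.11 in knock-in members. The mature neuron genes Grin2a and Slc17a7 were lower at higher sums. Grin2a was at 11.3, 5.91 and 4.05, and Slc17a7 at 1.06, 0.753 and 0.604. In the 86 cells just outside the rule, with a sum of 2 or 3, Zbtb20 was at 21.2, Sox4 at 0.282 and Grin2a at 17.0, and these cells had a median of 4400 detected genes. The bands of members had medians of 3746, 2549 and 2508 detected genes, so the bands also differed in the genes detected. The part of this in the levels was not tested. Across cells the sum and the number of detected genes had a Spearman rho of -0.02 in 67 wild-type and -0.14 in 88 knock-in members.

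**Figure D3:**
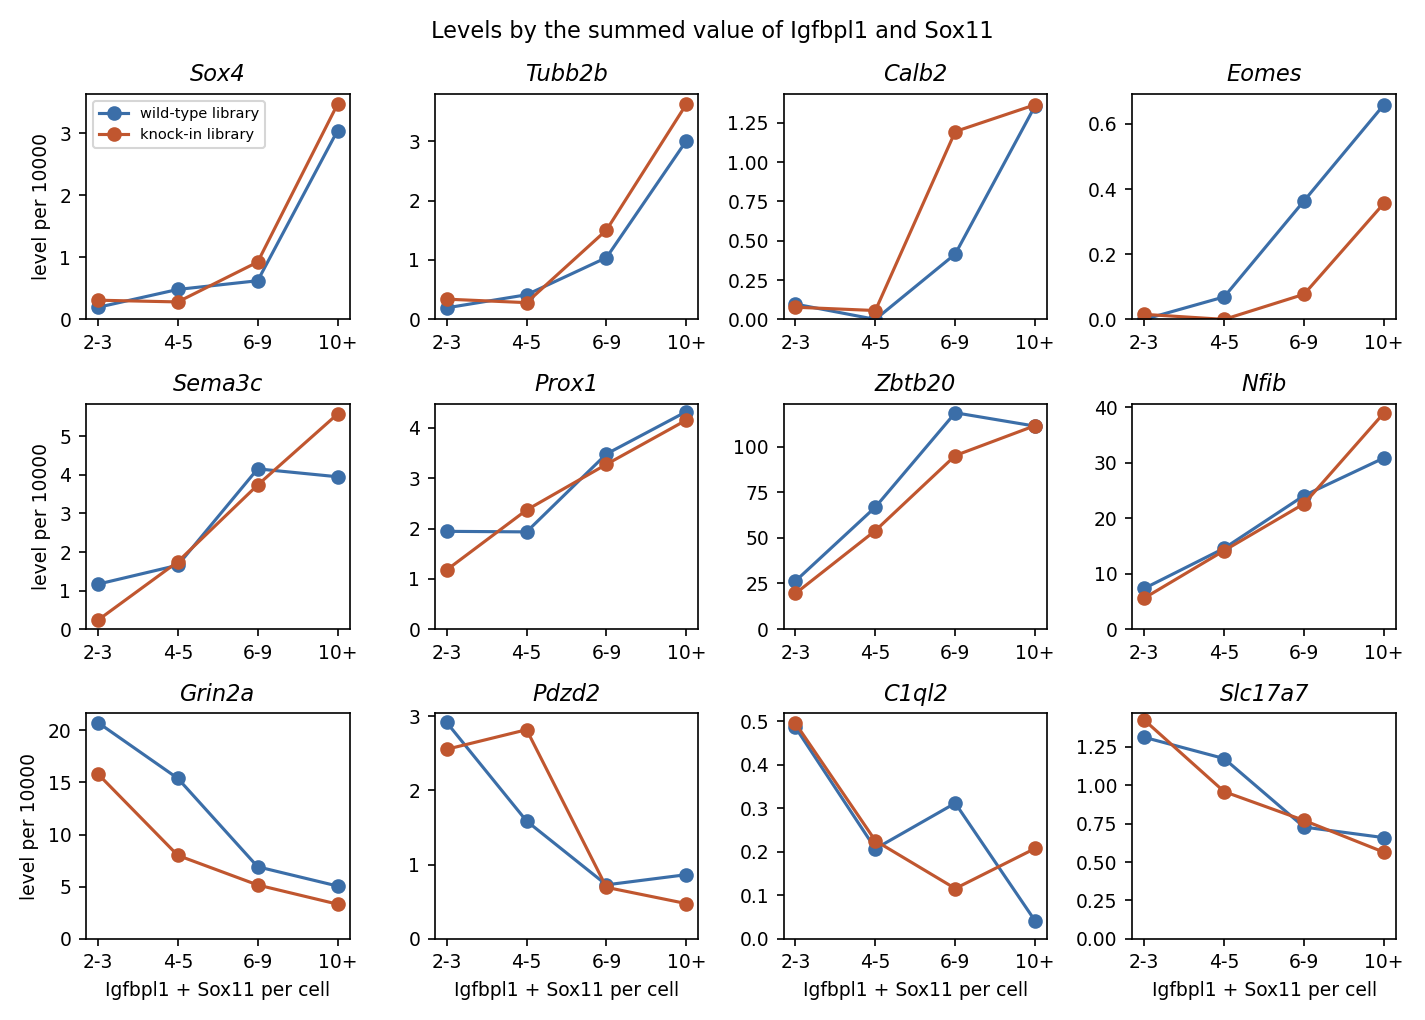
Level per 10000 of 12 genes (vertical axes start at 0) in cells grouped by the sum of Igfbpl1 and Sox11, with the cells just outside the rule (sum 2 or 3) at the left of each panel. Blue is the wild-type and orange the knock-in library, points are levels over all cells of a band, and Sox4, Tubb2b, Zbtb20 and Nfib are higher at the right whereas Grin2a and Slc17a7 are lower.

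The share of mitochondrially encoded transcripts (24 mt- genes in the table) was higher in members than in other cells of the same library by its median. It ran from 0 to 3.85% with a median of 0.231% in wild-type members, and from 0 to 3.19% with a median of 0.448% in knock-in members. In other cells the median was 0.123% and 0.218%, and the highest cells reached 19.9% and 25.03%. Granule neurons had medians of 0.0687% and 0.150%. A share above 1% was found in 9 of 67 wild-type members (13.4%, exact interval 6.33 to 23.97) and in 11 of 88 knock-in members (12.5%, 6.41 to 21.3). Among other cells 9.07% and 13.9% had such a share, each inside the interval of its own library's members. The mt- share was also higher in members with a larger sum, with medians of 0.161%, 0.369% and 0.521% over the bands, and lower in members with more detected genes (Spearman rho -0.43 in wild-type and -0.41 in knock-in members). These correlations are across cells of a library and carry no p-value.

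Values listed for nuclear copies of the mitochondrial genome moved with that share. In GENCODE M21, 6 pseudogenes lie side by side on the minus strand of chromosome 1 between 24611535 and 24616197, and at least 97.2% of the 31-base words of each occur in mitochondrial transcripts. Over all cells their summed level was 62.3 per 10000, above the 44.2 of the mt- genes themselves. Reads of the 2 sources cannot be told apart in these values. The pseudogene share had medians of 0.334% and 0.541% in members against 0.158% and 0.275% in other cells. Within members it followed the mt- share with a Spearman rho of 0.95 in wild-type and 0.96 in knock-in cells. Malat1, a nuclear RNA, took a median of 0.894% and 1.16% of a member's total against 1.64% and 2.10% in other cells.

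When all cells were clustered without the 2 rule genes, 120 of the 155 members (77.4%) fell into a single cluster of 522 cells, 267 wild-type and 255 knock-in. The median mt- share of that cluster was 0.646%, the sixth highest (rank 6) of 35 clusters, beside 0.171% over all cells. Its 402 other cells had a median of 0.706% and were led by mt-Rnr2, mt-Rnr1 and Tmsb10. The level of mt-Rnr2, the large mitochondrial ribosomal RNA, was 6.59 in the members of the cluster against 48.7 in its other cells and 4.28 in all cells outside it. The level of mt-Co1 was 1.69 against 6.27 and 0.898. The median Zbtb20 value per cell was 101 in the members of the cluster and 14.5 in its other cells, although single cells of the latter reached 197. Members also lay near each other: of 15 nearest neighbours, a member had a mean of 7.74 members, while the mean for other cells was 0.0629. No member was among the neighbours of 27 of the 155. There were 27 other cells with 8 or more members among their neighbours, and 22 of these had a Zbtb20 value of 60 or more. Of the 27, Igfbpl1 was above 0 in 19 and Sox11 in 9, with both above 0 in 5 and neither in 4. Cells with both genes above 0 and a larger sum were members, so the rule itself limits the count of 5.

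**Figure D4:**
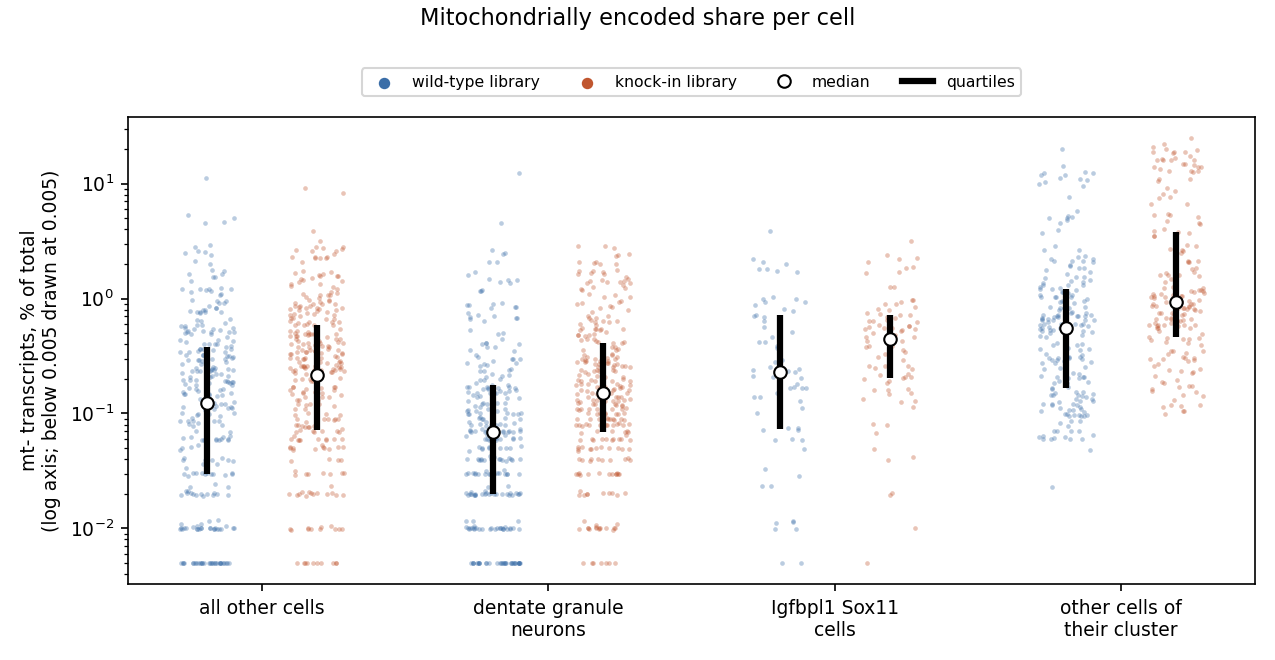
Share of mt- transcripts per cell (log axis, values below 0.005% drawn at 0.005%) in 4 sets of cells, with the wild-type library in blue and the knock-in library in orange. Points are cells, at most 300 drawn at random per set and library, white circles are medians and black bars span the quartiles, and the medians of the members (0.231% and 0.448%) lie between those of all other cells and those of the other cells of their cluster.

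The 35 members outside that cluster were spread over 13 others. Of these, 13 lay in 2 clusters led by the granule neuron genes Trpc6 and Glis3. They included 22 of the 35 members with a sum of 4 or 5, whereas 13 such members lay in the main cluster. Their median number of detected genes was 4350 against 2468 inside, and their median mt- share 0.0674% against 0.508%. The level of Zbtb20 was 28.3 in the outside members against 120 inside, Nfib 9.48 against 32.2, Sema3c 1.39 against 4.64, and Grin2a 11.98 against 4.50. For Zbtb20 and Nfib the outside members lay close to the granule neurons (30.3 and 29.3, and 7.44 and 7.77). All other cells were not far off (24.2 and 20.3, and 5.88 and 5.60), so these genes do not show that the outside members were granule neurons. C1ql2 was at 0.377 in the outside members, against 0.357 and 0.374 in other cells. In granule neurons, which were chosen on it, C1ql2 was at 2.17 and 2.42. A total of 13 members met the granule neuron rule as well, 7 met the rule for GABA neurons (Gad1 and Gad2), and none met those for oligodendrocyte precursors or newly formed oligodendrocytes.

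A GABA-lineage group was found among the members. In 18 cells the summed value of Dlx1, Dlx2, Dlx5, Dlx6, Dlx6os1 and Gad2 was 3 or more, and 128 members had 0. The Dlx genes encode homeobox factors of GABA neuron precursors, and Gad2 a GABA synthesizing enzyme. They were 4 of 67 wild-type (5.97%, exact interval 1.65 to 14.6) and 14 of 88 knock-in members (15.9%, 8.98 to 25.3), and the intervals overlap. Among other cells the same sum was reached by 2.55% and 4.12%. Their GABA gene sums were 7, 11, 19 and 27 in the wild-type cells and ran from 4 to 54 in the knock-in cells. Meis2, a homeobox factor, was at a level of 30.2 in these 18 cells against 0.792 in the 116 members with no GABA, proliferation or microglial group of genes. Pbx3 was at 16.2 against 0.190, though above 0 in only 9 of the 18 cells. Erbb4, the neuregulin receptor of migrating interneuron precursors, was at 34.9 against 0.581, and Sox2ot at 59.7 against 1.16. Between these sets 239 of 2493 genes were higher in the GABA-gene cells (9.59%) and 250 lower (10%). Erbb4 was not particular to the 18 cells, since GABA neurons outside the members had 59.6 in wild-type and 65.7 in knock-in cells. The same GABA neurons had Meis2 at 1.58 and 3.54, Pbx3 at 2.65 and 3.30, and Sox2ot at 15.2 and 12.6.

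These 18 cells lacked much of what marked the other members. Prox1 was above 0 in 5 of 18, against 89 of 116 of the remaining members. Adamts18 was at 0 in all 18 cells and Sema3c above 0 in 2, while they were above 0 in 90 and 82 of the 116. Calb2 was at 0 in all 18 cells and above 0 in 25 of the 116. Eomes was also at 0 in all 18, but it was above 0 in only 9 of the 116. The level of Zbtb20 was 38.4 against 110 in the remaining members, yet GABA neurons outside the members had only 3.66 and 3.12. Nfib was nearly as high as in the remaining members, at 22.9 against 26.7, with 5.66 and 5.40 in those GABA neurons. Dcx was above 0 in 15 of 18, and Stmn1 and Tubb2b were at 3.31 and 3.80. GABA neurons outside the members had Dcx at 1.37 and 1.71, against 2.27 in the 18 cells. Those neurons had Stmn1 at 0.282 and 0.281 and Tubb2b at 0.158 and 0.247. The counts rest on few cells, and 9 of the 18 Meis2 values lay at 30 or above. Of the 18 cells, 12 were in the main cluster.

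**Figure D5:**
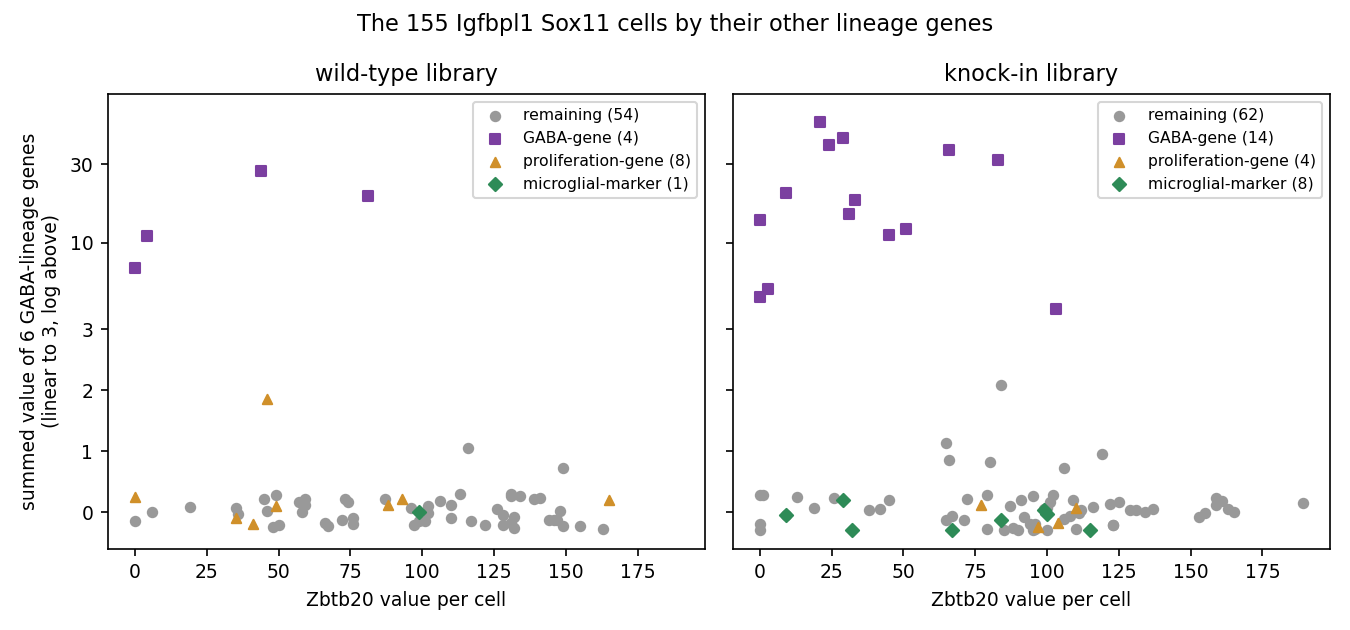
Each of the 155 members by its Zbtb20 value (horizontal) and the summed value of 6 GABA-lineage genes (vertical, linear up to 3 and logarithmic above, with a small random shift), one panel per library. Squares are the 4 wild-type and 14 knock-in GABA-gene cells, triangles cells with proliferation genes, diamonds cells with microglial markers and circles the remaining cells, of which 108 of 116 have a GABA sum of 0.

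Dividing cells were few. Of 20 proliferation genes, 5 or more were above 0 in 3 of 67 wild-type members (4.48%) and 3 of 88 knock-in members (3.41%), against 0.185% and 0.160% of other cells. A single wild-type cell had all 20, with a summed value of 374, of which the histone gene Hist1h2ap gave 223 and the topoisomerase Top2a 44. That cell had Eomes at 11, Sox4 at 19 and Prox1 at 1. The other 5 cells had 5, 7, 8, 10 and 13 of the genes, and 2 of them, with 5 and 13, belonged to the GABA-gene cells. The summed proliferation level of the wild-type members was 8.09 per 10000 and that of knock-in members 2.80. The single wild-type cell gave 79.7% of the wild-type sum, and without it the level was 1.68, so the order of the libraries rests on that cell. Without its highest cell the knock-in level was 1.90. Outside the GABA-gene cells and the cells with microglial markers (defined below), 12 members had a summed proliferation value of 3 or more. Of these, 8 were wild-type and 4 knock-in cells. Compared with the 116 remaining members, 363 of 2613 genes were higher in these 12 cells (13.9%) and 157 lower (6.01%). Eomes was at 1.40 against 0.170, Sox4 at 3.51 against 1.48 and Calb2 at 2.46 against 0.772, while Zbtb20 was at 79.4 against 110. Single cells carried the first of these levels: one cell gave 11 of the summed Eomes value of 16 and 19 of the Sox4 value of 40, and one gave 19 of the Calb2 value of 28. The proliferation genes chose these cells and are no finding among them.

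Some members carried markers of microglia, the immune cells of the brain. At least 5 of 12 microglial markers were above 0 in 1 wild-type and 8 knock-in members (1.49% and 9.09%). Among other cells, 11.3% and 13.5% did so. Of these 9 cells, 8 had Prox1 above 0 and 6 had Zbtb20 at 60 or more. Scrublet called 0 wild-type and 3 knock-in members doublets, against 0.868% and 2.35% of other cells.

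Few genes passed the fold between the members of the libraries. Knock-in members were higher past the fold for 20 of 2244 genes (0.891%) and lower for 6 (0.267%), and in other cells the same comparison gave 0.192% and 0.0962% of 2079 genes. Hdc, which makes histamine, was at 0.552 in wild-type and 4.85 in knock-in members, and the lincRNA Gm14216 at 0.4999 and 4.60. Both lie on chromosome 2, Hdc at 126593667 to 126619299 and Gm14216 at 154722352 to 154738451, each on the minus strand. Abl1, a tyrosine kinase gene on the plus strand of chromosome 2 at 31688376 to 31804227, was at 5.28 and 1.47, and the vesicle SNARE Sec22b at 7.36 and 3.01. These 4 genes differed in all other cells as well, with log2 ratios of 4.09 for Hdc, 4.12 for Gm14216, -2.72 for Abl1 and -1.12 for Sec22b, against 2.92, 2.97, -1.77 and -1.26 in members. Wild-type members carried Hdc above 0 in 46.3% and Gm14216 in 43.3% of cells. Pigv itself was at 0.0517 in wild-type and 0.129 in knock-in members, too low to compare, and a base change in its gene need not alter its level.

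Several of the other knock-in differences rested on few cells. Pbx3 (0.586 and 3.43), Nxph1 (0.276 and 1.06), Dlx6os1 (0.517 and 1.73), Erbb4 (1.78 and 6.89) and Gad2 (0.310 and 1.36) were high in the GABA-gene cells, of which the knock-in library held 14 and the wild-type library 4. In the 116 remaining members the levels were 0.195 and 0.186 for Pbx3, 0.282 and 0.261 for Nxph1, and 0.478 and 0.670 for Erbb4. Dlx6os1 was at 0.0217 and 0.0186 there and Gad2 at 0 and 0.0745, but these genes helped to choose the GABA-gene cells. Their levels in either set are therefore no finding. One knock-in cell gave 83.2% of the knock-in sum of Il1rapl2, and one gave 52.6% of that of Gm32647. The microglial gene C1qa was at 0.259 and 1.02, with 3 wild-type and 19 knock-in members above 0, and one wild-type cell gave 73.3% of the wild-type sum. On the lower side, Brinp3 was at 2.41 and 0.427, and one wild-type cell gave 46.4% of the wild-type sum. The guidance ligand Slit1 was at 1.4998 and 0.543, above 0 in 31 of 67 wild-type and 24 of 88 knock-in members, and at 1.499 and 0.317 in the remaining members. No single cell dominated Slit1, nor Prrc2a, at 1.52 and 0.672 and above 0 in 38 and 36 members, whose highest wild-type cell gave 5.68% of the sum. Cntln was at 1.17 and 0.465, with 14.7% from its highest wild-type cell. The RNA 2610307P16Rik was at 1.26 and 2.66, above 0 in 20 and 29 members, and at 0.760 and 1.73 in the remaining members.

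The genes of GPI anchors did not stand out in this comparison. Of 44 genes for GPI-anchored proteins, none passed the fold between knock-in and wild-type members in either direction, and the median log2 ratio was -0.03 beside 0.02 over all genes. Of 26 genes of GPI synthesis, 1 reached the level to be compared and none passed. Of the genes that led the members against other cells, Sema3c had a log2 ratio of knock-in over wild-type members of 0.24 and Zbtb20 of -0.14, whereas Dcx had 0.50, Tmsb10 0.71 and 2610307P16Rik 1.02, the last past the fold. Against other cells, 2 of the 44 GPI-anchored genes were higher and 6 lower in wild-type members, and 1 was higher and 5 lower in knock-in members, with medians of -0.52 and -0.49. Within the fold, the neural adhesion protein Ncam1, with GPI-anchored and transmembrane forms, was at 17.1 and 14.9 against 9.76 and 8.46. Among the lower genes, the glypican Gpc5 was at 2.05 and 1.32 against 9.74 and 10.3.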

How the data were processed

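Per the labels, 2 libraries of hippocampal cells (Chromium v3, 4 mice pooled each) were sequenced on 1 lane. The submitters' processing notes name Seurat 3.0.0 and GRCm38, and the aligner and counter are not given in the sources used here. The authors deposited 1 table of 30223 genes by 15930 cells. The deposited values are whole numbers that the authors appear to have corrected for depth in each cell, since totals per cell lay between 4846 and 14501. They were treated as a deposited score and not as raw counts, so depth is unknown and no count test was run.

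Levels, log2 ratios and the fold rule are as defined with the results, and the list medians used genes with a mean level of 0.2 or more. Named genes were the 25 highest and 10 lowest against other cells, up to 10 in each direction between libraries, and list genes at a level of 0.5 or more. Some list genes below that level (Calb2, Eomes, Draxin and C1ql2 among them) and genes of the cell subgroups were named after their values were seen. The members, the 34 gene lists and the rules were chosen with earlier results of these data known. Clustering used scanpy 1.11.5 under Python 3.11.15 (2000 variable genes, 30 components, 15 neighbours, Leiden resolution 1). Doublets were kept and called with Scrublet for counting only. The fold rule was tested on simulated data. Positions are from GENCODE M21, in which 30199 table symbols were found.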

Additional observations from a re-analysis of the deposited data

How the results depend on the processing

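No paired analysis was possible because each genotype is 1 library, and no replicate could be left out. In all, 312 summary values and 946 gene values were computed over the settings. None of the 770 ratios of named genes over other cells changed direction, but 94 of them were counted as moved. Of 176 ratios of knock-in over wild-type members, 27 moved and 4 turned. With a sum of 6 or more, the shares were 0.719% and 0.781%, and 31 genes were higher in knock-in members. With a sum of 3 or more, the wild-type median of the dentate list was 1.23, and knock-in over wild-type turned for C1qa (-0.080). With 1 added in place of 0.1, 56 genes were higher and 59 lower than in other cells, and 5 and 3 between libraries. With no minimum level these counts were 229 and 421, and 198 and 75. With values of 1 set to 0, 38 and 17 genes passed between libraries. The cause of these shifts was not tested.

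The next settings were chosen after seeing the data. Thinning gave shares of 0.691% and 0.611%. In cells with an mt- share at or below 0.5%, 56 and 18 genes passed between libraries and 93 were lower than in other cells. There the wild-type median of the immature list was 0.82 and that of the dentate list 0.60. Proliferation genes had a knock-in median of 2.07 over other cells and of 1.09 over wild-type members, the latter turned. In cells with a ribosomal share at or below 1%, 11 genes were lower in knock-in members, the immature list had medians of 0.93 and 0.86 over other cells, the wild-type dentate list had 0.51, and proliferation genes gave 0.56 between libraries, which turned. Without the GABA, proliferation and microglial subgroups, the GABA list turned to -0.62 and -0.60 over other cells and gave 0.36 between libraries, since its cells were left out. Knock-in over wild-type then turned for Pbx3 (-0.046), Nxph1 (-0.084) and Dlx6os1 (-0.037), the last of which helped to choose the GABA-gene cells. What depth limits cannot be judged here, since raw counts were not analysed.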
